A study of Drosophila melanogaster with 60 samples.

Results

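Across Drosophila metamorphosis, 154 probes were highest at 72 h after puparium formation (APF) in animals without a germline. Of the 10 named probes with the largest margins, 6 belonged to a list of cuticle protein genes, 2 of them measuring Vajk2. The 154 probes were chosen from tud progeny, the offspring of mothers homozygous for tud1, which form no germ cells. For each probe the male and female means of the tud progeny were averaged at each hour, each mean resting on 2 or more of 3 arrays, and the 72 h average had to exceed the highest of the other 4 hours by 0.5 or more on the log2 scale. Probes whose wild type male mean was 1 or more above the tud male mean, averaged over the hours, were left out, which sets aside transcripts that were high in males with a germline. Of 15744 probes, 3241 had tud means at all 5 hours, 3090 of these passed the limit on the male difference and 154 (4.98%) were members. By the same rule 318, 273, 129 and 331 probes peaked at 0, 24, 48 and 96 h. A further 32 probes had the 72 h margin but were dropped by the limit on the male difference. Gene names were available for 65 of the 154 probes, which represent 63 genes, and the other 89 are given by probe identifier only. Names came only from parts of the study's gene lists, so the named probes may not represent the 154. Of 1179 eligible named probes, 22 were in the cuticle protein list.

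The study hybridised 60 glass-slide oligonucleotide arrays, 3 for each of 20 groups. The groups were males and females of the wild type strain Canton S and of tud progeny, collected at 0, 24, 48, 72 and 96 h APF. The mothers of the tud progeny were tud1 bw1 sp1 and the fathers carried y w and a ubiquitous GFP transgene, P[w+ UBI-GFP]. In the published methods the tud females expressed GFP and were told from the males by it. The 2 genotypes therefore differed in strain and in markers as well as in the germline. None of these can be told apart, nor can sex and the transgene within tud progeny. Each RNA came from a pool of whole pupae, and every array compared its sample with one reference RNA made from wild type pupae of both sexes and all stages. A value is therefore the log2 ratio of a sample to that mixed reference, a value of 0 means the level of the reference, and values of different probes are not compared as levels. In whole animals, fewer cells of a type and less RNA per cell cannot be told apart. The labels do not say whether the 3 arrays of a group came from separate cultures, so the p-values measure only the spread between these arrays.

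Metamorphosis replaces the larval body with the adult one inside the puparium. Around the middle of the pupal period the epidermis lays down the adult cuticle outside its cell membranes, a layered material of chitin fibres, chitin-binding proteins and an outer lipid and protein envelope, and the cuticle is later cross-linked and darkened by enzymes of the tanning pathway. Many cuticle genes are transcribed in short bursts that follow the rise and fall of the steroid hormone ecdysone, so that a time course of whole pupae reads them as pulses.

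The groups carried the marks of their labels. The 6 male germline probes that could be named, among them betaTub85D (a testis-specific tubulin), had means from 0.38 to 0.76 in wild type males and from -6.64 to -1.52 in tud males. The dosage compensation RNA roX1 was higher in males in both genotypes, with means of 1.12 and -3.93 in wild type males and females and 1.24 and -5.66 in tud males and females. This set the direction of the ratios, because the labels and the published methods give opposite dyes to sample and reference. The arrays held from 3954 to 10236 probes with a value, and their medians over all probes lay between -0.03 and 0.32. In the labels of 2 of the tud female 48 h arrays the characteristics do not match the title, replicate 1 repeating the description of the reference and replicate 2 giving a slightly earlier hour, and both were kept by title. Without replicate 1 the rule gave 142 probes, 141 of them among the 154, and without replicate 2 it gave 150, 149 of them among the 154.

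The values that chose the members are described first, without a test. The median of the 154 probes in tud progeny lay at -2.42 when the puparium formed, at -2.07 a day later, at -1.15 by 48 h, at 1.04 by 72 h and at -0.21 by 96 h. Over all 3090 eligible probes the medians at these hours were -0.01, 0.15, 0.06, -0.03 and -0.11. The margin of 72 h over the next highest hour had a median of 0.95 and ran from 0.50 to 6.69, with 75 probes at 1 or more, 28 at 2 or more and 9 at 3 or more. The next highest hour was 96 h in 99 probes, 48 h in 37, 24 h in 11 and 0 h in 7. At 72 h, 135 of the 154 lay above the reference, whereas at 96 h 60 did. Just inside the limit stood Afg3l2 (a mitochondrial protease subunit) with a margin of 0.5001, DAC003P16 with 0.5016 and DAC025M23 with 0.5029. Just outside it stood DAC023K01 with 0.4948, DAC008L22 with 0.4934 and DAC014I06 with 0.4895.

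On single arrays the 72 h medians of the members were closely grouped, and those of tud females at 48 h and tud males at 96 h were the most spread. In tud females the median over members was 1.08, 1.04 and 1.05 in replicates 1, 2 and 3 at 72 h. In tud males it was 1.01, 0.95 and 0.99. At 48 h it was -1.56, -0.90 and -0.04 in tud females, and at 96 h it was 0.00, 0.23 and -1.52 in tud males. The replicates that stood apart were therefore tud female 48 h replicate 3, which was high, and tud male 96 h replicate 3, which was low. On tud female 48 h replicate 3, 81 of 153 members lay above a level 1 log2 unit below their tud 72 h average, against 27 to 37 on the other 48 h tud arrays. On tud male 96 h replicate 3, 93 of 142 members (65.5%) lay nearer to the wild type male 96 h mean than to the mean of the other replicates, against 31 of 148 for replicate 1 and 37 of 149 for replicate 2. The same share over all eligible probes was 46.9% for replicate 3, 34.6% for replicate 1 and 38.3% for replicate 2. The testis transcript Mst84Dc was at -4.04 on replicate 3 and at -5.31 and -2.46 on replicates 1 and 2, below the wild type male values of 0.63, 0.55 and 0.75, so this array carried the mark of tud males. With both arrays left out 119 probes met the rule, of which 111 were among the 154.

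**Figure D1:**
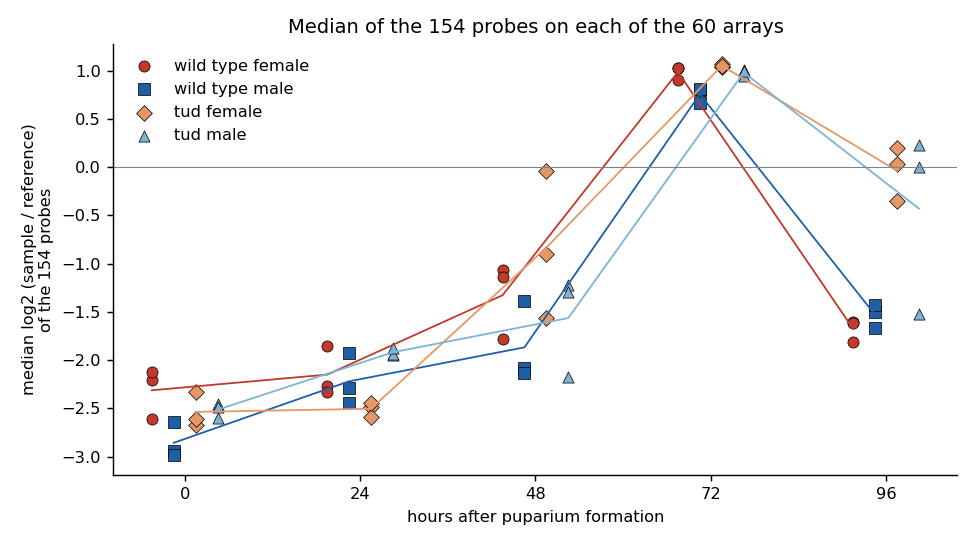
Median log2 ratio of sample to reference over the 154 probes on each of the 60 arrays, against hours after puparium formation, with the 4 combinations of genotype and sex set side by side at each hour. Points are single arrays and lines join the means of 3 arrays. All 12 arrays at 72 h lie between 0.67 and 1.08, and at 96 h the tud arrays other than male replicate 3 lie above the 6 wild type arrays.

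Among named probes the largest margins in tud progeny belonged to CG13050, Vajk1, Osi19, CG12164, b6, Cpr72Ec, Vajk3, Edg78E and Vajk2 (measured by 2 probes), from 6.69 down to 2.59. The unnamed probe DAC021O10, with a margin of 3.55, ranked between Vajk1 and Osi19. CG13050, a gene known by number only, was a single pulse. The 3 tud female arrays gave -5.58, -5.52 and -2.79 at 48 h, then 1.82, 2.23 and 1.56 at 72 h, then -4.90, -5.92 and -5.87 at 96 h. The tud male arrays gave 2.20, 1.91 and 1.23 at 72 h, then -5.24, -5.23 and -4.36 at 96 h. Every tud array at 72 h lay above every tud array of the other hours. The same separation was found for 61 of the 154 members, and for 2.2% of all eligible probes.

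The wild type females had no part in the rule, and their time course was tested. There the 72 h mean was the highest of the 5 hours for 127 of the 140 members with means at every hour (90.7%), against 18.5% of all 4315 probes with such means. In limma, a 72 h maximum required the 72 h mean to exceed each of the other 4 means, the largest of the 4 one-sided p-values being adjusted over all probes by the method of Benjamini and Hochberg, with a threshold of 0.15. At this level 85 of 140 members (60.7%) had a 72 h maximum, where 4.96% of all 4315 probes did. The median margin was 1.44 in the members and -0.58 over all probes tested. In wild type males, which entered the rule through their mean over the hours, 83 of 143 members (58%) had a 72 h maximum, where 2.76% of 4962 probes did. The 72 h mean was highest in 130 of these 143 members, against 13.4% of all probes. Of 131 members tested in both wild type sexes, 67 were called in both, 15 in females and not males and 10 in males and not females. The share of all probes called in both sexes was not counted. The 72 h maximum itself was not tested for a difference between the sexes. Sex differences over the hours were tested jointly and by time, as given below. Every array at 72 h lay above every other array of wild type females for 104 of 140 members, against 8.25% of all probes, and of wild type males for 111 of 143, against 5.74%.

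Leaving out any single array gave between 65 and 91 members with a 72 h maximum in wild type females and between 70 and 88 in wild type males. The lowest of these came without wild type female 0 h replicate 1 and without wild type male 72 h replicate 3. The first was 65 of only 107 members tested, where 160 of 3521 probes passed. The second was 70 of 142, where 109 of 4826 probes passed. With the 2 tud arrays that stood apart left out together, the counts were 90 of 140 and 92 of 143. Over all probes they were 224 of 4315 and 149 of 4962.

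CG13050 was a single pulse in wild type females as well. The 0 h arrays gave -5.94 and -1.46, with 1 array lacking a value, the 24 h arrays -4.96, -6.37 and -5.19, and the 48 h arrays -5.16, -4.13 and -4.73. Then came 2.20, 2.03 and 1.99 at 72 h, and -5.78, -5.47 and -5.02 on the 96 h arrays. Only the 72 h arrays stood above the reference. The margin over the next highest hour was 5.77 (SE 0.72, adjusted p = 6.71e-08 in limma), and in wild type males it was 7.04 (SE 0.64, adjusted p = 5.46e-11). The unnamed probe DAC003B17, chosen here after its values were seen, had the largest margin in wild type females, 8.97 (SE 1.17, adjusted p = 1.94e-07).

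**Figure D2:**
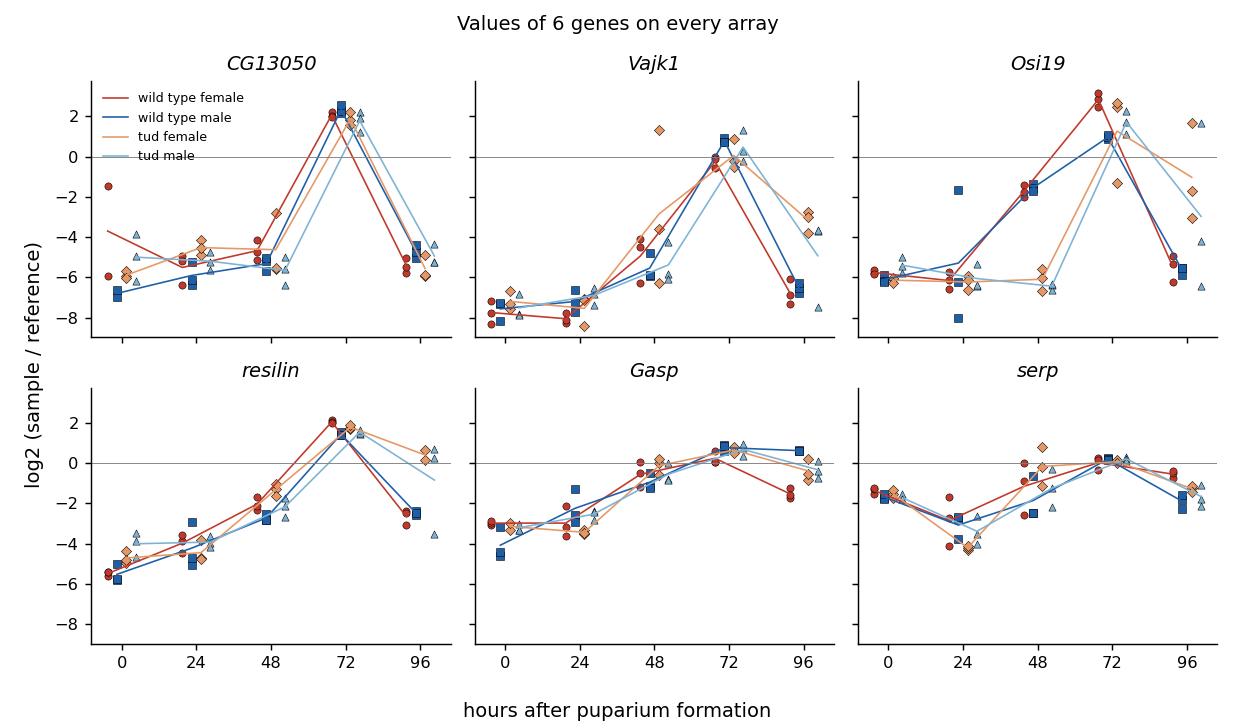
Log2 ratio of sample to reference for CG13050, Vajk1, Osi19, resilin, Gasp and serp on every array with a value, against hours after puparium formation. Points are single arrays, lines join the group means and symbols give genotype and sex. CG13050, Vajk1, Osi19 and resilin have margins of 4.08 to 5.77 in wild type females, whereas Gasp and serp have margins of 0.80 and 0.57 there and reach the reference on 1 array each at 48 h.

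Of the gene lists drawn up, that of cuticle proteins held the most members. Of 28 probes in a list of cuticle protein genes, 22 were eligible and 12 were members, representing 11 genes. The list also took in the chorion gene Cp7Fb, which was eligible and not a member, and the counts below include it. The members were Vajk1, Vajk2 (by 2 probes), Vajk3 and Vajk4, whose genes code for cuticular proteins, Cpr72Ec, Cpr97Ea and Cpr97Eb of the chitin-binding CPR family, TwdlT and TwdlE of the Tweedle family, Edg78E, an ecdysone-dependent cuticle protein, and resilin, an elastic protein of flexible cuticle. Of the 24 probes of the list that could be tested in wild type females, 10 had a 72 h maximum, and all 10 were members. Between 48 and 72 h, 14 of 26 tested probes of the list rose and 2 fell, with a median change of 1.86, where 19.4% of all 4845 probes rose and their median change was -0.12. Between 72 and 96 h, 18 of 24 fell and 1 rose, with a median change of -4.06, where 35.1% of all 5446 probes fell and their median change was -0.25. The list was drawn up with earlier results of these data known and its counts are a description.

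Most eligible cuticle genes outside the 154 were highest at other hours in tud progeny, and Cpr51A missed the limit with a 72 h margin of 0.43. In these animals Cpr66D and Cpr66Cb were highest at 48 h, with averages of 1.32 and -0.08, and were 0.59 and -0.83 at 72 h. Cpr72Ea was highest at 24 h, at 3.68, and was -4.73 at 72 h. The 2 probes of Cpr49Ac were highest at 0 h, at 2.53 and 2.43. These genes were named after their values were seen. The list of apical matrix ZP proteins had 8 eligible probes and 0 members. In wild type females 8 of its 9 tested probes fell from 48 to 72 h and 0 rose, with a median change of -2.98. The list of cuticular lipid synthesis had 1 eligible probe and 0 members.

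Vajk1 went from far below the reference to about its level. The wild type female arrays gave -4.09, -4.47 and -6.27 at 48 h, then -0.04, -0.13 and -0.56 at 72 h, then -7.30, -6.86 and -6.10 at 96 h. Its margin was 4.70 (SE 0.91, adjusted p = 0.000205). In tud females the 48 h values were -6.29, -3.58 and 1.32, the last of them on the array that stood apart, so that 1 array at 48 h was above all 3 at 72 h (-0.23, 0.89 and -0.51). Vajk2 and Vajk3 also had a 72 h maximum, with margins in wild type females of 4.34 (SE 0.62) and 4.61 (SE 0.70) for the 2 probes of Vajk2 and of 5.09 (SE 0.70) for Vajk3. Vajk4 was less sharp, with a margin of 2.43 (SE 0.89, adjusted p = 0.0984). Vajk2 and Vajk3 are next to each other on chromosome arm 2L in the RefSeq annotation, and 1 and 2 protein-coding genes lie between them and Vajk1.

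Resilin was tightly measured. Its wild type female arrays gave -5.63, -5.41 and -5.42 at 0 h, then -3.88, -3.58 and -4.47, then -1.68, -2.31 and -2.12 by 48 h. The 72 h arrays gave 2.12, 2.03 and 1.97, and the 96 h arrays -3.08, -2.40 and -2.47. The groups of successive hours did not overlap, and the margin at 72 h was 4.08 (SE 0.53, adjusted p = 1.52e-07). Crys, which encodes a lens protein of the compound eye related to cuticle proteins, was at -4.20, -3.93 and -4.23 at 48 h and at 1.93, 1.86 and 1.88 at 72 h in wild type females, a rise of 6.01 (SE 0.52, adjusted p = 1.64e-12), and its margin was 3.69 (SE 0.52). Cpr72Ec had a margin of 4.89 (SE 0.85) and CG43386, a gene known by number only, one of 3.88 (SE 0.68). Cpr97Ea and Cpr97Eb are adjacent genes on 3R, and the first had a 72 h maximum in wild type females (margin 2.10, SE 0.43). Cpr97Eb did not pass the test (margin 0.79, SE 0.84), although it rose by 5.95 from 48 to 72 h.

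Edg78E and CG12164 were the 2 of the 10 named probes with the largest margins in tud progeny that did not pass in wild type females. The 24 h arrays of Edg78E gave -4.12, -2.33 and -5.59 there, and the 72 h arrays -2.06, -3.13 and -2.96, so the groups of the 2 hours overlapped, and the margin was 1.30 (SE 0.89, adjusted p = 0.95). In tud females the 24 h values were -6.54, -5.97 and -6.68. CG12164, known by number only, did not reach the threshold in wild type females (margin 2.04, SE 1.01, adjusted p = 0.407), its 48 h values being -1.90, -3.13 and -5.49 against -1.31, -0.77 and -2.34 at 72 h, but it passed in wild type males (margin 5.72, SE 1.01, adjusted p = 6.96e-05).

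Osi19, a member of the Osiris family of insect membrane proteins, had different 48 h values in the 2 genotypes. The wild type females were at -2.01, -1.39 and -1.78 at 48 h and at 2.86, 2.47 and 3.17 at 72 h, a margin of 4.56 (SE 1.14, adjusted p = 0.00454). The tud females were at -6.03, -6.65 and -5.60 at 48 h and at 2.45, -1.31 and 2.65 at 72 h. The wild type males were at -1.36, -1.57 and -1.74 at 48 h and at 0.85, 0.95 and 1.05 at 72 h, and the margin of 2.51 (SE 1.14) did not pass (adjusted p = 0.448). Of 3 eligible genes of the family Osi19 was the only member. Osi3 and Osi6, named after their values were seen, were highest at 48 h in tud progeny, with averages of 3.61 and -1.04, and at -5.69 and -3.72 at 72 h.

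Of 19 probes in the list of chitin synthesis and modification, 15 were eligible and 5 were members: Cda5, serp and verm, which encode chitin deacetylases, Gasp, a chitin-binding protein of the tracheal and epidermal matrix, and Cht6, a chitinase. For verm and Cht6 a second probe, which lacked a tud mean at 96 h and was not eligible, was higher at 48 than at 72 h in tud progeny, at 1.40 and 1.07 for verm (DAC015E15) and at 1.39 and 0.39 for Cht6 (DAC007N01), so the probes of these genes disagree. None of the 14 probes of the list that could be tested had a 72 h maximum in wild type females in limma, and 3 of them had an unadjusted p under 0.05. Between 48 and 72 h, 6 of 16 rose and 5 fell, and their median change was 0.04. Serp, adjacent to verm on 3L, gave 0.01, -0.89 and -2.59 at 48 h in wild type females, then 0.25, 0.13 and -0.32 at 72 h, then -0.74, -0.51 and -0.40 at 96 h. The 48 and 72 h groups overlapped and the margin was 0.57 (SE 0.50, adjusted p = 1). In wild type males it was at 0.24, 0.22 and 0.14 at 72 h, above all other arrays, with a margin of 1.87 (SE 0.50, adjusted p = 0.0133). The member probe of verm gave margins of 0.58 (SE 0.60, adjusted p = 1) in females and 1.97 (SE 0.60, adjusted p = 0.045) in males. Cda5 had no 0 h mean in wild type females and rose there by 1.72 (SE 0.43, adjusted p = 0.00168) from 48 to 72 h. Chitin synthase kkv, named after its values were seen, was higher at 48 than at 72 h in tud progeny (0.99 and 0.53).

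Gasp differed between the sexes at 96 h in wild type pupae. In the males it was at 0.90, 0.58 and 0.83 at 72 h and at 0.62, 0.63 and 0.61 at 96 h. In the females it was at 0.05, 0.58 and 0.08 at 72 h and at -1.72, -1.25 and -1.59 at 96 h, a difference of 2.14 between the sexes at 96 h. The difference between the sexes changed with time in limma (adjusted p = 0.000158). In tud progeny Gasp was at -0.82, -0.57 and 0.21 in females and at -0.37, 0.11 and -0.72 in males at 96 h, with overlapping values.

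Of 13 probes for tanning and pigment genes, 11 were eligible and 3 were members: yellow-d2 and yellow-e of the Yellow protein family and stw, which encodes the laccase straw that cross-links cuticle. Yellow-d2 had a 72 h maximum in wild type females (margin 2.43, SE 0.72, adjusted p = 0.0257), stw did not pass (0.88, SE 0.35, adjusted p = 0.166) and yellow-e did not pass (1.09, SE 0.48, adjusted p = 0.257). All 3 rose from 48 to 72 h, by 2.43, 0.88 and 1.67, as did 7 of the 12 probes of the list that could be tested, with none falling. The enzymes of dopamine synthesis, named after their values were seen, continued to rise. Ple, tyrosine hydroxylase, rose by 5.14 and Ddc, dopa decarboxylase, by 1.37 from 72 to 96 h in wild type females, whereas yellow-d2 fell by 4.40 and stw by 2.22.

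Other named members included genes of the cuticle surface and its assembly. These were chosen after their values were seen. Peritrophin-A, a chitin-binding protein, had a margin of 3.04 (SE 0.59) in wild type females. Slf, a C-type lectin of the cuticle, had one of 2.90 (SE 0.61) and cysu, a peroxidase needed for stable wing cuticle, one of 2.32 (SE 0.52). CG30427, a predicted fatty acyl-CoA reductase, had one of 2.47 (SE 0.40), and cmb, which acts in wing hair formation, one of 1.05 (SE 0.26). Each of the 5 passed the test. Snu, an ABC transporter of the lipid barrier, did not. In wild type females its 72 h mean was 0.13 below that of 96 h (SE 0.39).

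Few named members came from the lists outside the cuticle, and the 89 unnamed members could not be placed in any list. Of the 7 glycolysis probes, 2 were members. Gapdh2, glyceraldehyde-3-phosphate dehydrogenase, was at 0.38, 0.63 and 0.77 at 72 h and at 0.07, -0.19 and -0.03 at 96 h in wild type females, and its margin of 0.64 (SE 0.15, adjusted p = 0.00204) passed. Ldh, lactate dehydrogenase, was at 2.17, 1.23 and 0.47 at 72 h and did not pass (0.79, SE 0.62). Mlp60A, a muscle LIM protein, was the only member of 17 sarcomere probes, and its margin of 0.58 (SE 0.65) did not pass. No named member came from the respiratory chain (10 eligible probes), the citric acid cycle (7), the proteasome (33) or the cytosolic ribosome (10). In wild type females 12 of 13 respiratory chain and 7 of 7 citric acid cycle probes tested rose from 48 to 72 h, against 19.4% of all probes. From 72 to 96 h, 7 of 13 and 5 of 7 rose, against 17.6% of all probes. A 72 h maximum was called in 1 of 13 and 0 of 7. None of 4 eligible mitochondrial ribosome probes was a member either, but in wild type females 3 of the 5 tested had a 72 h maximum, 4 of 6 rose from 48 to 72 h and 6 of 6 fell from 72 to 96 h. The heat shock genes Hsp70Ab and Hsp70Ba, whose near-identical copies the probes may not separate, were members with wide spread. Hsp70Ab was at 4.90, 3.04 and 1.99 at 72 h and at 3.67, 4.69 and 1.21 at 24 h in wild type females, and the groups overlapped.

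**Figure D3:**
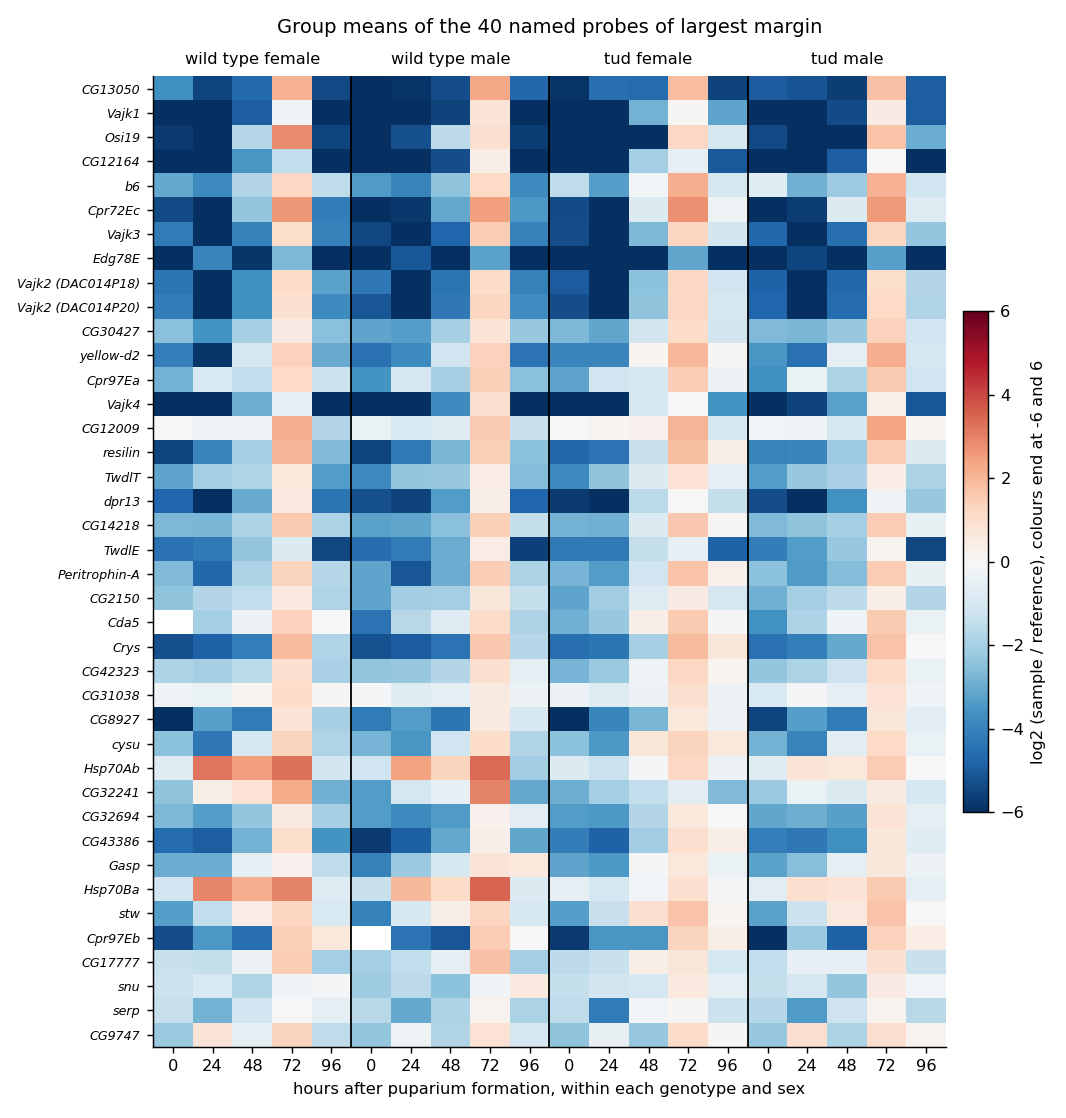
Group means of the 40 named probes of largest margin in tud progeny, one row a probe, for the 5 hours in each combination of genotype and sex. Red is above and blue below the common reference on the log2 scale, with colours ending at -6 and 6. The 72 h columns are the reddest in all 4 blocks, and many cells at 96 h are less blue in the tud blocks than in the wild type blocks.

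The height of the maximum in tud progeny did not fix its height in wild type females. Of the 75 members with a tud margin of 1 or more, 69 could be tested in wild type females and 56 passed. That is a larger share than the 85 of all 140 members tested, and 4.96% of all 4315 probes passed. In 13 members the 72 h mean of wild type females was not the highest. They include the 4 named genes snu, Rnf11 (a RING finger protein), LUBEL (a linear ubiquitin ligase) and Pect (an enzyme of phosphatidylethanolamine synthesis). The unnamed probe DAC034I01, chosen after its values were seen, had a margin of -2.62 there. It was at 6.27, 3.71 and 4.91 at 72 h in tud females and at -4.35, -3.29 and -3.37 in wild type females. In tud males its 72 h values were 3.10, -0.09 and -0.72. At 48 h replicate 1 was far above the others in both tud sexes, at 5.78 against -1.86 and -1.37 in females and at 4.38 against -1.17 and -1.97 in males.

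**Figure D4:**
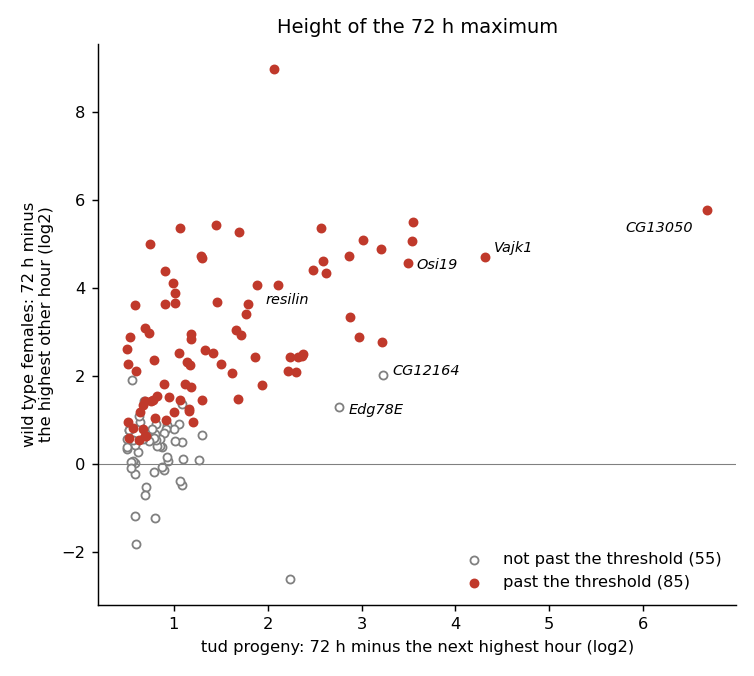
Margin of the 72 h mean over the highest other hour in wild type females against the margin in tud progeny, both in log2 units, for the 140 members with wild type female means at every hour. Filled points are the 85 members past the threshold in limma and open points the 55 others. The tud margin chose the probes, so the horizontal spread starts at 0.5 by construction.

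The rise and the fall around 72 h were both steep in wild type females. From 48 to 72 h, 123 of 152 members rose and none fell, where 45.3% of all probes changed and 19.4% rose, and the median change of the members was 1.82. From 72 to 96 h, 132 of 151 fell and 2 rose, where 35.1% of all probes fell and 17.6% rose, and the median change of the members was -2.52. Both changes passed in 113 of the 150 members tested for both, and the share of all probes that passed both was not counted. Without a single array the count that changed ranged from 104 to 124 for the step to 72 h and from 124 to 135 for the step to 96 h. The lowest were 104 of 135 members tested, where 1723 of 3707 probes changed, and 124 of 147, where 2437 of 4943 did. The spread between replicates was itself wider before and after the maximum. Among wild type females the median SD of members with 3 values was 0.47 at 48 h, 0.19 at 72 h and 0.26 at 96 h, where that of all eligible probes was 0.22, 0.18 and 0.17. In tud females it was 0.64 at 48 h and 0.21 at 72 h, and in tud males 0.86 at 96 h and 0.21 at 72 h.

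The genotypes differed most after the maximum. This is given without a test, because the tud values chose the members. Before 72 h there were smaller differences. In males at 0 h the median was 0.39 (upper quartile 0.85), with 30 of 149 members (20.1%) more than 1 higher in tud progeny against 7.52% of eligible probes. In females at 48 h it was 0.28 (upper quartile 0.79), with 25 of 153 (16.3%) against 2.71%, a group that includes the high replicate 3. At 72 h the tud mean was above the wild type mean by a median of 0.10 in females and 0.17 in males. At 96 h it was above by a median of 1.20 (quartiles 0.40 and 2.37) in 152 members in females and by 1.07 (quartiles 0.25 and 1.68) in 151 members in males. The corresponding medians over all eligible probes were 0.06 and 0.23. In females 83 of the 152 members (54.6%) were more than 1 higher in tud progeny at 96 h, where 11.5% of eligible probes were, and in males 81 of 151 (53.6%), where 13.3% were. In both sexes at once 63 members were more than 1 higher at 96 h, against 8 at 72 h and 6 at 48 h. The share of all eligible probes that were so in both sexes at once was not counted. Every tud female array with a value lay above every wild type female array at 96 h in 106 of 152 members (69.7%), against 32.5% of eligible probes. In males the same held for 51 of 151 (33.8%), close to the 30.8% of eligible probes, and tud male 96 h replicate 3 was the low array there. Without that replicate the median male difference was 1.35 over 140 members, of which 86 were more than 1 higher in tud progeny. The share of eligible probes without that replicate was not counted.

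The hour next to 72 h in level is given for each genotype and sex, without a test. Among members with means at all 5 hours, the runner-up to 72 h was 96 h in 88 of 154 in tud females and in 99 of 154 in tud males. Among wild type females it was 48 h in 64 of 140 and 96 h in 46, and in wild type males it was 48 h in 55 of 143 and 96 h in 54.

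Crys showed the 96 h difference at a gene that was equally high in both genotypes at 72 h. The tud females were at 1.88, 1.78 and 1.99 at 72 h and at 1.09, 0.62 and 0.39 at 96 h. The wild type females were at -1.81, -1.87 and -1.73 at 96 h. In tud males the 96 h values were 1.12, 1.09 and -2.29, the last on replicate 3, and in wild type males they were -1.64, -1.58 and -1.90. Resilin was at 0.63 and 0.17 at 96 h in tud females, with 1 array lacking a value, and at 0.26, 0.72 and -3.51 in tud males. DAC003B17 was the extreme case, at 0.97, 0.94 and 0.35 in tud females and at -8.75, -7.56 and -3.92 in wild type females at 96 h, with tud males at 1.01, 0.97 and -7.50. CG13050 and Edg78E did not share the pattern. CG13050 differed by -0.14 in females and -0.23 in males at 96 h, and Edg78E by 0.31 and 0.52.

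**Figure D5:**
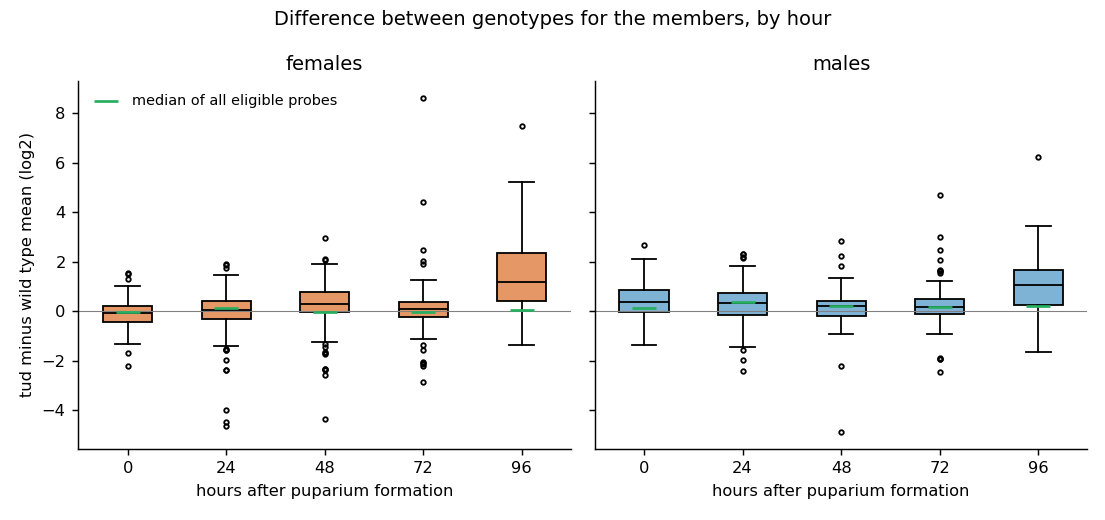
Difference of tud and wild type group means in log2 units for each member with 2 or more values in both groups, by hour, in females and in males. Boxes span the quartiles with a line at the median, whiskers reach the furthest value within 1.5 times the box length, points are members beyond them, and green bars are medians of all eligible probes. From 0 to 72 h the medians lie between -0.07 and 0.28 in females and between 0.17 and 0.39 in males, and at 96 h they are 1.20 and 1.07.

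Among tud progeny the females expressed GFP and the males did not, so sex and transgene cannot be told apart in these tests. The difference between male and female tud progeny, tested over the 5 hours jointly, passed in 6 of the 154 (3.9%), where 3.24% of all 3241 probes did with all arrays kept. Without tud female 48 h replicate 1, the array whose characteristics repeat the description of the reference, it passed in 29 of 145 (20.0%), where 5.16% of 2909 probes did, and without replicate 2, whose label gives an earlier hour, in 6 of 150 (4.0%), where 3.03% of 3068 did. By the mean over hours 3 of the 6 were higher in males, as were 1.6% of probes, and 3 in females, as were 1.64%. At 72 h alone limma called no member. An unadjusted p below 0.05 was found in 5 of 154 (3.25%), against 7.53% of 5340 probes, and 0.899% of those probes were called, 0.206% higher in males and 0.693% higher in females. A sex difference that changed over the hours was called in 4 members, where 0.771% of probes were, and in 14 of 145 (9.66%) without tud female 48 h replicate 1, where 2.17% were. CG1441, a predicted fatty acyl-CoA reductase, was among both (adjusted p = 0.00786 jointly and 0.0272 with time). At 48 h it was at 0.46, 1.14 and 1.79 in tud females and at -0.54, -0.78 and -0.69 in tud males, without overlap, and at 0 h it was at -2.44 and -1.69 in females and at -0.07, -1.37 and -0.84 in males, the opposite way. CG12009, known by number only, was at 0.34 and 0.19 in females and at -1.03 and -1.07 in males at 48 h, and at -0.54, -1.43 and -1.21 in females and -0.06 and 0.26 in males at 96 h (adjusted p = 0.00851 jointly and 0.0132 with time). Opa1, a GTPase of mitochondrial fusion, was at -0.59 and -0.57 in females and at 0.28, 0.17 and 0.12 in males at 24 h (adjusted p = 0.0601 jointly and 0.0937 with time). CG17327 (0.0649 and 0.134) passed both tests, and Rnf11 and CG1368 passed the joint test (both 0.0953). These counts moved with single arrays. Among tud male arrays, leaving out 24 h replicate 1 brought the joint count to 1 of 134, where 59 of 2994 probes were called. Without 24 h replicate 2 it was 3 of 144, where 81 of 3013 were. Leaving out 96 h replicate 1 brought it to 13 of 137, where 257 of 2675 probes were called, a similar share. Without 96 h replicate 2 it was 15 of 136, where 146 of 2860 were, and without replicate 3 it was 2 of 143, where 68 of 2898 were. Among tud female arrays, leaving out 24 h replicate 1 brought the joint count to 3 of 121, where 77 of 2667 probes were called. Leaving out 48 h replicate 1 brought it to 29 of 145, as given above. The count for change over time was 1 or 2 without tud male 24 h replicate 1, 2 or 3, 48 h replicate 1 or 96 h replicate 3. It was 7 of 136 without tud male 96 h replicate 2, where 59 of 2860 probes were called. Without tud male 96 h replicate 1 it was 9 of 137, where 159 of 2675 were. It was 2 without tud female 0 h replicate 1, 24 h replicate 3, 48 h replicate 2 or 96 h replicate 1 or 3. Without tud female 0 h replicate 3 it was 7 of 145, where 34 of 3130 probes were called, and without 48 h replicate 1 it was 14. Where the count was 1 or 2, between 6 and 19 of all probes tested were called.

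In wild type pupae the sexes differed at 53 of 131 members (40.5%), where 72.4% of all 3791 probes did, and 15 of these were higher in males and 38 in females by the mean over hours, against 19% and 53.3% of all probes. The difference changed with time in 30 (22.9%), where 35.3% of probes did. After quantile normalization the members and all probes had similar shares. The sexes then differed at 100 of 131 members and 2843 of 3791 probes. The difference changed with time in 55 of 131 members and 1630 of 3791 probes. Wild type animals have a germline, so germline and somatic differences cannot be told apart here. Wild type male values also entered the rule through their mean.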

How the data were processed

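The members and gene lists were chosen with earlier results of these data known. The authors scanned the arrays with GenePix, kept elements clearly above background in at least 1 channel and normalized each array by global loess in limma, a tool the submitters' processing notes also name without a version. Each deposited value is a log2 ratio that sets a sample against the mixed reference. Intensities were not analysed here, so signal over background is unknown, and the number of arrays limits the precision.

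One value per probe and array was read for 15744 probes, without 32 control elements. Group means of 20 groups were fitted on all 60 arrays with limma 3.58.1 in R 4.3.3. A probe was tested with 2 or more of 3 values in each group compared, and p-values were adjusted over all tested probes by the Benjamini-Hochberg method at the study's threshold of 0.15. Joint sex tests were F tests whose covariance took account of missing values. The fit was tested on simulated data. Alternatives were the genotype's own arrays only, the replicate block, median centring, quantile normalization, complete values, array weights (statmod 1.5.0), a threshold of 0.05, Storey's q, a margin of 1 and leaving out each array. Leaving out 2 arrays together was chosen after seeing the data. Tables and plots were made in Python 3.11.15 with pandas 2.3.3 and matplotlib 3.10.9.

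Probes were named from the study's gene lists, 2357 in all, of which 2343 matched a symbol in RefSeq Release 6, used for names and gene order only. These lists were held in part and cover few probes, so shares of named probes are not compared between hours. Genes named were members with a name and the 10 largest margins in tud progeny or, among those called, in wild type females, up to 4 a gene list, those past a tud sex test, the 3 probes on each side of the limit, and unnamed probes among the 3 largest margins. Other names were added after their values were seen, as stated.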

Additional observations from a re-analysis of the deposited data

Results flagged for a closer look

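In tud progeny the difference between the sexes changed with time at 4 members, by the interaction test in limma. Over the 5 hours the male minus female difference ranged over 3.11 log2 units at CG1441, 2.47 at CG12009, 1.55 at CG17327 and 1.02 at Opa1. At CG1441 it was 1.30 at 0 h and -1.80 at 48 h, and at CG12009 it was -1.31 at 48 h and 1.16 at 96 h. At Opa1 it was 0.77 at 24 h and between -0.25 and -0.01 at the other hours. CG17327 lost its call with time under the most settings of the 4, among them the fit on tud arrays alone.

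In wild type pupae the sex difference changed with time at 30 members, 22.9% of the 131 tested, against 35.3% of all 3791 probes. After quantile normalization it changed at 55 of 131 members, against 1630 of 3791 probes, which are similar shares. Gasp ranged over 3.24, from -1.10 at 0 h to 2.14 at 96 h, and CG1441 ranged over 2.76, from -1.35 at 48 h to 1.41 at 0 h.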

How the results depend on the processing

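The rule gave 60 members with complete tud values, 75 with a margin of 1 and 100 with the margin in each tud sex, where fewer probes qualify by construction. It gave 149 after median centring (140 of them shared), 191 after quantile normalization (141 shared), 210 with a margin of 0.3 and 186 without the limit on males. Leaving out 1 array gave 120 to 154 members. For the wild type female 72 h peak, the wild type male 72 h peak, the wild type female rise 48 to 72 h and the wild type female fall 72 to 96 h, the count moved by more than 1.5 times only with members by a margin of 1, to 56 of 69, 54 of 71, 69 of 75 and 73 of 75. Single arrays gave 65 to 91, 70 to 88, 104 to 124 and 124 to 135, the lowest out of 107, 142, 135 and 147 members tested.

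The sex counts were less stable, and the cause was not tested. The tud sex difference passed in 3 members with only the tud arrays, 2 after quantile normalization, 1 with complete values, 21 with array weights, 2 at a threshold of 0.05, 1 with a margin of 1, 2 without the 2 arrays and 1 to 29 without single arrays. The tud sex difference at 72 h passed in 2 after quantile normalization, 2 with array weights and 0 to 1 without single arrays. The tud sex difference by time passed in 2 after quantile normalization, 0 with complete values, 13 with array weights, 2 at 0.05, 1 with a margin of 1, 1 without the 2 arrays and 1 to 14 without single arrays. The wild type sex difference by time passed in 55 after quantile normalization, 11 with complete values, 68 with array weights, 13 at 0.05, 56 by Storey's q, 11 with a margin of 1, 48 without the 2 arrays and 18 to 38 without single arrays, with 18 or 19 without wild type male 0 h replicate 1 or 2, wild type male 96 h replicate 2 or wild type female 0 h replicate 2. The wild type sex difference passed in 100 after quantile normalization, 19 with complete values, 92 with array weights, 31 at 0.05, 125 by Storey's q, 22 with a margin of 1 and 40 to 65 without single arrays.

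Replicate numbers pair nothing by the labels. Same-numbered arrays deviated together with a correlation over 0.1 in 125 of 570 pairs, and 25 of 60 arrays correlated best with their own number. The median correlation was 0.0014 for same-numbered pairs and -0.0021 for pairs of other numbers. With the replicate block 86 and 83 members had a 72 h peak in wild type females and males, 121 rose and 134 changed at the fall in wild type females, 6 passed the tud sex difference, 0 at 72 h and 4 by time, and 55 and 29 passed the wild type sex difference and its change with time, so no count moved by over 1.5 times. The mean male minus female difference of CG12009 in tud progeny was -0.07 and turned to 0.0003 after quantile normalization. Over all alternatives, single calls of named genes kept their direction and side of the threshold in 3154 cases and lost the call in 78.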
